A study of Mus musculus with 29 samples.

Results

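The Hox genes are the homeobox transcription factors of the HoxA, HoxB, HoxC and HoxD clusters. Of the 22779 gene IDs measured in alveolar septa, 38 protein-coding members are described, and they were taken by symbol, whatever their values. A gene ID that stood on several lines of the deposited table was represented by the line with the highest mean. The samples were alveolar septa cut by laser from frozen lung sections of 29 wild type C57BL/6 mice of 15 ages, 1 library per animal. The late alveolar group held 9 libraries (P13.5, P15, P19, P23 and P28), the early alveolar group 8 (P4, P5, P7 and P10), the postnatal saccular group 8 (4 ages, P0.5 to P2.5) and the prenatal group 4 (E16.5 and E18.5), where E counts days of gestation and P days after birth. Each age had 2 animals, except P28 with 1. The labels name no treatment and no engineered allele. The capture cut widely around the septa to keep away from large vessels and bronchi, so a library mixed every cell type of the septum, and in such bulk samples fewer cells of a type and less RNA per cell cannot be told apart.

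Hox proteins bind DNA through the homeodomain, often together with TALE cofactors of the Pbx, Meis and Pknox families. Within a cluster the genes lie in the order of their paralog numbers, and genes with low numbers are generally active further forward along the body axis than genes with high numbers. In the mouse lung, Hox RNA is known mainly from the mesenchyme, and loss of Hoxa5 disturbs the branching of the airways and the later formation of alveoli. Polycomb complexes keep silent Hox genes closed, and trithorax-type complexes keep active ones open.

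Septal identity and library quality were examined first. FPKM (fragments per kilobase of transcript, scaled to the mapped fragments of the library) summed to between 318176 and 457706 per library, and between 10114 and 13059 genes reached an FPKM of 1. The summed FPKM of the alveolar type 2 markers Sftpc, Sftpb, Lamp3 and Abca3 was 2157 or more in every library, and Sftpc alone was 2066 or more. The alveolar type 1 markers Ager, Aqp5 and Pdpn summed to as little as 42.3 FPKM in a prenatal library. Markers of other tissue were present too. Airway markers (Scgb1a1, Foxj1 and Cyp2f2) summed to up to 5268 FPKM in an early alveolar library. Heart muscle markers (Myh6, Tnnt2 and Actc1) summed to up to 1704 FPKM in a prenatal library. Of 8623 well expressed protein-coding genes, 416 were listed at 0 in animal a of P10, 578 in animal d of P19 and 242 in animal f of P19, against 1 to 112 in the other 26 libraries. A 0 in these libraries can therefore be a failed estimate, and a named call that changes without them is given both ways. The labelled sex went against Xist and 4 Y-linked genes in 14 of the 29 libraries, and sex was used only as an alternative covariate. Whether libraries were interchanged between ages was not tested, and the submitters' design text names 14 of the 15 ages, without E18.5, so every comparison below rests on the age labels as given.

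The homeobox, the 180 bases that encode the homeodomain, shows how alike the members are in sequence. One member each of HoxA and HoxB is shown. Hoxa5 is the best studied lung Hox gene and had one of the highest levels in the septa. Hoxb7 was called lower in late alveolar than in prenatal septa, a fragile call described with the stage comparisons. The sequences are the coding strand of the mm10 (GRCm38) genome in the GENCODE M21 annotation, 5′ to 3′, and capitals mark the positions at which these members differ.
Hoxa5, exonic, chr6:52202632-52202811, minus strand: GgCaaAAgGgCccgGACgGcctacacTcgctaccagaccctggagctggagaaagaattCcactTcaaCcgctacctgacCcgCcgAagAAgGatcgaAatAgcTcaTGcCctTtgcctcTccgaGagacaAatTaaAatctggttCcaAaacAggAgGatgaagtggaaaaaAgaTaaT
Hoxb7, exonic, chr11:96289385-96289564, plus strand: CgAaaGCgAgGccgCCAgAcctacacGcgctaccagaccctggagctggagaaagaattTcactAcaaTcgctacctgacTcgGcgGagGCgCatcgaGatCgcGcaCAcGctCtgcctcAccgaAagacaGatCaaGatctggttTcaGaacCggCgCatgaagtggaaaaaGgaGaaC

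Hoxa5 and Hoxb7 differed at 40 of the 180 bases, an identity of 77.8%, and shared a stretch of 32 bases without a mismatch. Over the 40 pairs of members with the same paralog number the identity ranged from 67.2% to 93.9% with a median of 80.6%, against 60.6% as the median of the 657 pairs with different numbers whose gene spans do not overlap. The highest value belonged to Hoxa3 and Hoxb3. The longest stretch shared without a mismatch between whole transcripts of tested members was 52 bases, between Hoxa6 and Hoxb4, and the median over the 87 pairs was 17 bases. How the authors' pipeline assigned reads that fit several members is not given in the sources used here.

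Expression was a feature of the HoxA and HoxB clusters. At an FPKM of 1 or more in at least 4 of the 29 libraries, the definition of an expressed and tested gene used here, 14 of 38 members were expressed. They were 6 of the 10 HoxA genes on chromosome 6 (Hoxa2 to Hoxa7), 7 of the 10 HoxB genes on chromosome 11 (Hoxb2 to Hoxb8), none of the 9 HoxC genes on chromosome 15 and 1 of the 9 HoxD genes on chromosome 2 (Hoxd10). When at least 15 libraries were required, 12 members remained at an FPKM of 1 or more. Hoxa2, Hoxa5, Hoxb3, Hoxb4 and Hoxd10 reached it in all 29 libraries. At the other end, 19 members stayed below 1 in every library and 12 of these were listed at 0 in every library.

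**Figure D1:**
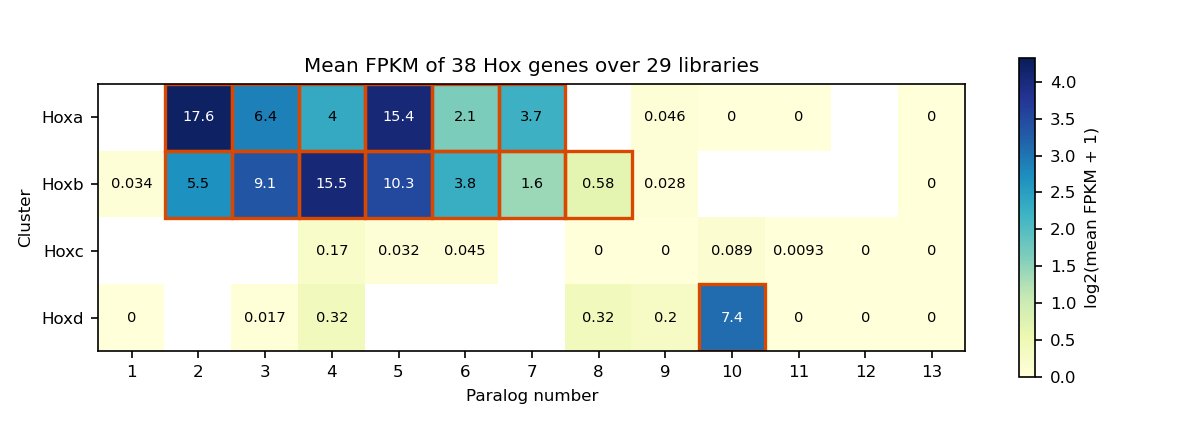
Mean FPKM of each Hox gene over 29 libraries, by cluster (rows) and paralog number (columns), with colour on a log2(mean FPKM + 1) scale and orange frames around the 14 expressed genes. The framed genes form 2 runs, Hoxa2 to Hoxa7 and Hoxb2 to Hoxb8, with Hoxd10 at 7.44 apart from them; no value is shown in white cells.

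The mean FPKM of the 38 members summed to 104.5, of which HoxA held 47.2%, HoxB 44.6%, HoxD 7.94% and HoxC 0.327%. Hoxd10 made up nearly all of the HoxD share, which was 0.888% without it. By position in the cluster, 13 of the 22 members with paralog numbers 1 to 8 were expressed and the means of those 22 summed to 96.7 FPKM, whereas among the 16 members with numbers 9 to 13 only Hoxd10 was, and the means of those 16 summed to 7.81 FPKM. Paralog groups 2 to 7 were each represented by both their HoxA and their HoxB gene. The sums by paralog number were 25.8 FPKM for number 5, 23.1 for number 2, 20.0 for number 4, 15.5 for number 3, 6.00 for number 6 and 5.33 for number 7. In paralog group 8 only Hoxb8 (0.580 FPKM) passed the limit.

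Of the members outside the tested set, a few reached an FPKM of 1 in single libraries. Hoxd4 did so in 3 libraries with a maximum of 2.60 FPKM, Hoxd8 in 2 with a maximum of 5.31, and Hoxd9 in 2 with a maximum of 2.80. Hoxc4 reached 2.18 FPKM in 1 library and Hoxc10 reached 2.57 in 1. All 5 were listed at 0 in at least 18 of the 29 libraries. The 12 members listed at 0 throughout were Hoxa10, Hoxa11, Hoxa13, Hoxb13, Hoxc8, Hoxc9, Hoxc12, Hoxc13, Hoxd1, Hoxd11, Hoxd12 and Hoxd13. The remaining 7, Hoxa9, Hoxb1, Hoxb9, Hoxc5, Hoxc6, Hoxc11 and Hoxd3, had means between 0.00931 and 0.0460 FPKM.

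The level of Hoxd10 is uncertain. Its gene ID stood on 2 lines of the deposited table, one between 3.61 and 13.7 FPKM in all 29 libraries (mean 7.44) and one listed at 0 in 28 libraries and at 0.147 in the other (mean 0.00506). The adjacent Hoxd9 averaged 0.202 FPKM, and Hoxd11, whose span overlaps that of Hoxd10 (chr2:74684273-74695106, GRCm38), was listed at 0 throughout. With the lower line for Hoxd10 alone, 13 members would be counted as expressed in place of 14, none of them outside paralogs 1 to 8. Which line stands for the Hoxd10 transcript is not given in the sources used here. Hoxa3, Hoxa6, Hoxc10 and Hoxd8 also had a second line, and its mean was at most 0.0338 FPKM. With the lowest line taken for every repeated gene ID, 11 members would be counted as expressed, as Hoxa3 and Hoxa6 would drop out with Hoxd10.

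**Figure D2:**
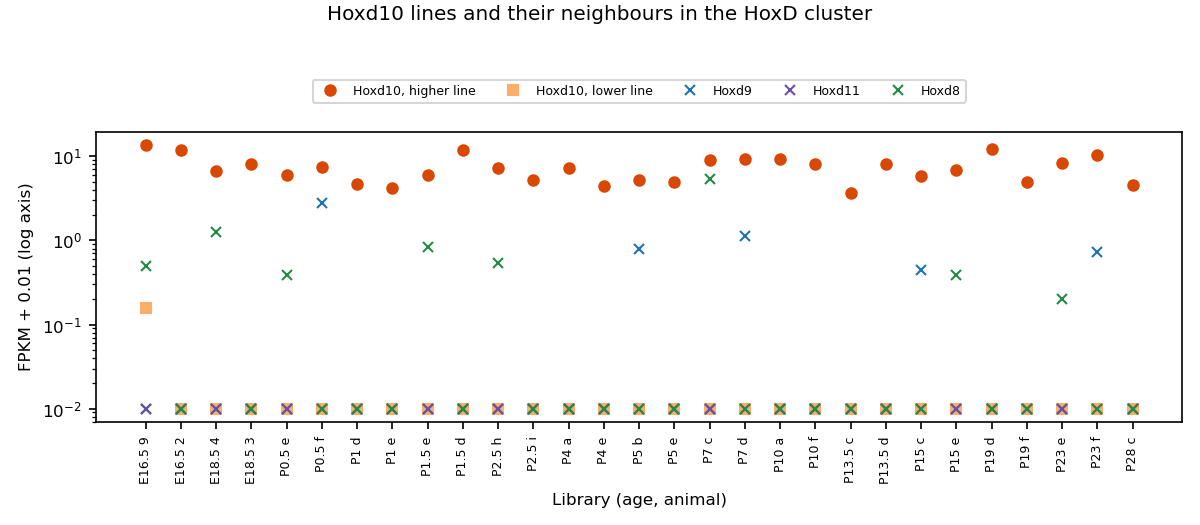
FPKM plus 0.01 on a log axis for both lines of Hoxd10 and for Hoxd8, Hoxd9 and Hoxd11 in the 29 libraries, ordered by age. The higher Hoxd10 line lies between 3.61 and 13.7 in every library, while Hoxd11 and, in 28 libraries, the lower line lie at 0 (drawn at 0.01).

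Overlapping annotated spans can limit how far neighbouring members are separated, and overlap of exons was not examined. In the RefSeq annotation 10 members overlap the span of another Hox gene. Hoxa3 (chr6:52169059-52213067) spans Hoxa4, Hoxa5 and Hoxa6, and Hoxb3 (chr11:96307101-96347930) spans Hoxb4. Counting antisense and other genes too, 19 members overlap some other gene, including Hoxb2 with Hoxb3os and Hoxb5 with Hoxb5os. The library kit keeps strand, but whether strand was used in quantification is not given in the sources used here, so reads of a member and its antisense partner cannot be told apart. The 8 noncoding genes of the clusters that had values were listed at or near 0. Of these 8 (Hotair, Hottip, Hoxa11os, Hoxd3os1, Mir10a, Mir10b, Mir196b and Mir615), 6 were listed at 0 in all libraries and the other 2 peaked at 0.983 and 0.326 FPKM. None was tested. Whether the libraries captured RNAs as short as those of Mir10a, Mir10b, Mir196b and Mir615 is not given in the sources used here. A 0 for these microRNA genes therefore does not show that their RNA was absent. Hoxb3os and Hoxb5os were not among the 8, so their levels are not known here.

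Promoter windows of 300 bases from RefSeq (GRCm38.p6, 250 before to 50 after the start) were at hand for 22 members. Over their 24 windows the number of CpG dinucleotides ranged from 4 to 45 with a median of 14.5, against a median of 7 over all 32841 windows. The 8 windows of expressed members had a median of 17 and the 16 windows of the other members a median of 14, with overlapping ranges of 9 to 29 and 4 to 45.

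The highest levels belonged to Hoxa2, Hoxb4 and Hoxa5. FPKM is per transcript length, so these levels are set side by side. The unknown assignment of shared reads, the overlapping spans and the choice of line limit this ranking. Hoxa2 averaged 17.6 ± 8.20 FPKM, Hoxb4 15.5 ± 8.42, Hoxa5 15.4 ± 6.14 and Hoxb3 9.14 ± 3.68 (SD, n = 29 libraries over all ages). Hoxa2 exceeded Hoxb4 in 21 of 29 libraries and Hoxb4 exceeded Hoxa5 in 14, so the order of Hoxb4 and Hoxa5 was not resolved. Hoxa5 exceeded the next member, Hoxb5, in 23 libraries. Further down, means lay within the spread of their neighbours. From Hoxb5 down through Hoxb3, Hoxd10, Hoxa3, Hoxb2, Hoxa4 and Hoxb6 to Hoxa7, each gene exceeded the next in 14 to 20 of 29 libraries. Among protein-coding gene IDs, Hoxa2 ranked 3975 and Hoxb8, the lowest expressed member, ranked 13394 of 19629, so Hox RNA was of moderate to low abundance in the septa.

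Summed Hox FPKM had its highest median in the early alveolar stage. The summed FPKM of all 38 members had a median of 68.9 in the 4 prenatal libraries, 99.6 in the 8 postnatal saccular, 138.3 in the 8 early alveolar and 86.3 in the 9 late alveolar libraries. HoxA sums had medians of 27.6, 45.7, 63.4 and 43.7 FPKM in the same order of stages, and HoxB sums 30.9, 45.002, 67.7 and 30.4 FPKM. Late alveolar HoxA sums ran from 26.4 to 92.4 FPKM, a range that held all early alveolar HoxA sums (40.1 to 71.5 FPKM). Sums in the HoxB cluster ran between 20.3 and 62.1 FPKM in late alveolar libraries, against 46.8 to 95.0 FPKM in early alveolar libraries, so the ranges overlapped. The number of members at an FPKM of 1 or more was between 7 and 15 per library with a median of 12, and the values of 7 and 8 belonged to the 2 P19 libraries rich in zeros.

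**Figure D3:**
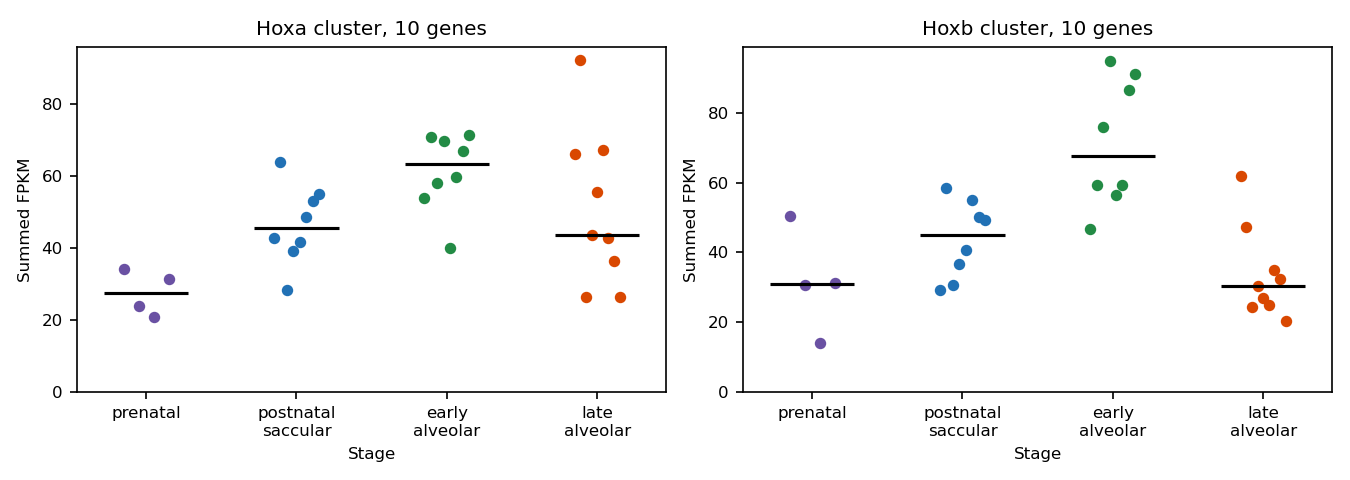
Summed FPKM of the HoxA genes (left) and the HoxB genes (right) in each library, by stage from prenatal to late alveolar; points are libraries and black bars are medians. HoxB medians run 30.9, 45.002, 67.7 and 30.4 FPKM from the prenatal to the late alveolar stage.

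Stages were compared with limma on log2(FPKM + 1), which understates the change of low genes, and p values were adjusted over all 14616 genes tested (Benjamini-Hochberg, threshold 0.05). The comparisons share their groups and are not independent. Fold changes are on this log2 scale, and a positive value means higher in the later stage. For the late against the early alveolar stage, which asks what changes once bulk septation is over, 3 of the 14 tested members were called, all lower and all in HoxB. Of all genes tested, 11.4% were called in this comparison and 7.47% were called lower. In numbers, 568 genes were called higher and 1092 lower, and the split was 741 and 864 with quantile normalization. The median change was -0.64 over the 14 members and -0.09 over all genes.

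Hoxb2, whose protein patterns the hindbrain in the embryo, showed the largest of these decreases. Its FPKM was 1.53 and 0.403 at P13.5, 1.95 and 2.52 at P15, listed at 0 in both animals of P19, 1.70 and 3.09 at P23 and 1.82 at P28. In early alveolar septa it was 5.49 and 3.02 at P4, 8.27 and 8.30 at P5, 14.5 and 10.8 at P7, and 24.3 and 10.9 at P10. All 9 late libraries thus lay at or below 3.09, and of the early ones only the lowest P4 library reached into that range. Hoxb2 fell by 2.23 ± 0.35 (log2 difference ± SE, limma, adjusted p = 6.2e-05). Leaving out the 3 zero-rich libraries, which include both zeros and the maximum of 24.3, gave -1.72 (adjusted p = 7.8e-04). Because Hoxb2 was highest at P10, moving P10 into the late group took the change to -1.44 (adjusted p = 0.0643). Before the alveolar stage Hoxb2 had 2.56 to 11.3 FPKM in postnatal saccular libraries (median 5.32), against 4.08 and 2.44 at E16.5 and 1.31 and 3.06 at E18.5.

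Hoxb3, the neighbour of Hoxb2 within the cluster, also fell. It ranged from 3.400 to 10.7 FPKM in late alveolar septa with a median of 5.50, against 6.58 to 17.6 with a median of 12.3 in early alveolar septa. The groups overlapped, with 4 of the 9 late libraries inside the early range and 3 of the 8 early libraries inside the late range. Hoxb3 fell by 0.89 ± 0.21 (log2 difference ± SE, limma, adjusted p = 0.0053) and was called under every alternative run, with values between -1.12 and -0.80. In the earlier stages Hoxb3 had a median of 10.3 FPKM in postnatal saccular septa (6.50 to 15.9), against 10.3 and 8.02 at E16.5 and 4.74 and 7.56 at E18.5.

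Hoxb5, the HoxB paralog of the lung patterning gene Hoxa5, was the third. In late alveolar septa its FPKM was 6.59 and 8.12 at P13.5, 5.88 and 6.67 at P15, 6.79 and listed at 0 at P19, 8.33 and 9.25 at P23 and 2.18 at P28. In early alveolar septa it was 13.5 and 14.7 at P4, 26.2 and 20.5 at P5, 7.22 and 6.74 at P7, and 25.5 and 22.3 at P10. Both P7 libraries lay within the late range and the other 6 early libraries above it. Hoxb5 fell by 1.47 ± 0.43 (log2 difference ± SE, limma, adjusted p = 0.0217). Its call did not hold when the 3 zero-rich libraries were left out (-1.07, adjusted p = 0.0869), with a pseudocount of 0.1 (-1.93, adjusted p = 0.0536) and with P10 in the late group (-0.90, adjusted p = 0.284). Prenatally the 2 animals of E16.5 stood apart at 19.0 and 3.31 FPKM, with 2.09 and 6.06 at E18.5, and postnatal saccular libraries ran from 2.65 to 16.7 with a median of 10.4.

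**Figure D4:**
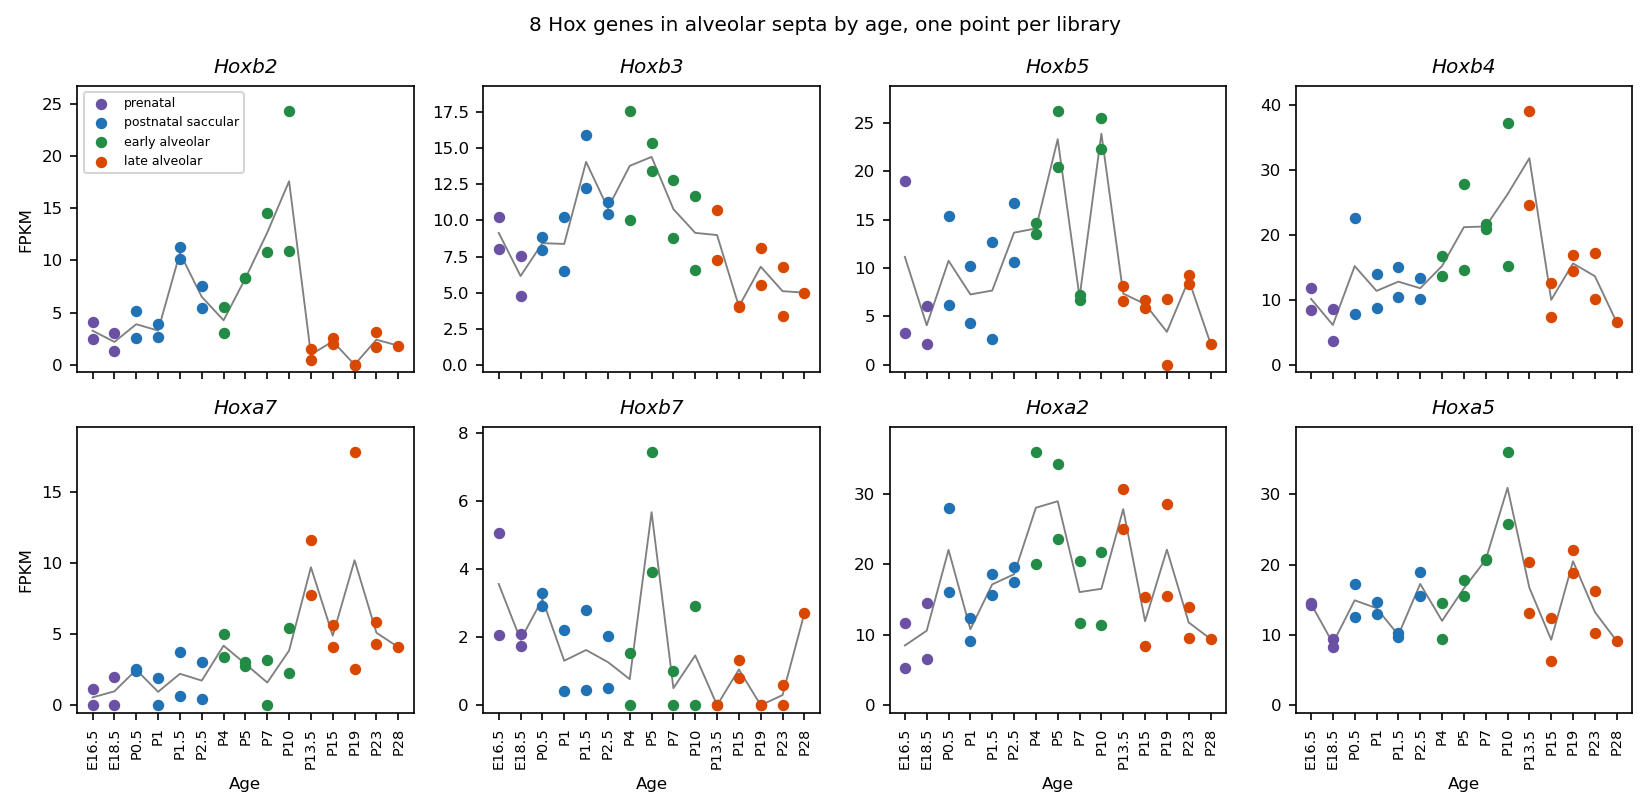
FPKM of 8 Hox genes in each library against age, with stages by colour and a grey line through the mean of the animals of an age. The 9 late alveolar points of Hoxb2 lie at or below 3.09 after a maximum of 24.3 at P10, and those of Hoxa7 lie between 2.57 and 17.8.

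The other 11 tested members were not called between the late and early alveolar stages. The difference was -1.17 for Hoxb6 (adjusted p = 0.0916) and 0.95 for Hoxa7 (adjusted p = 0.107, limma). Hoxa5 had 6.27 to 22.1 FPKM with a median of 13.05 in late alveolar septa, against 9.44 to 36.0 with a median of 19.2 in early alveolar septa. Its difference was -0.46 ± 0.23 (SE, adjusted p = 0.210), and the ranges overlapped. With each of the 15 ages as its own group, the difference was -0.51 (adjusted p = 0.0358), the only alternative run in which Hoxa5 was called. In all, 13 of the 14 members had negative values in this comparison and Hoxa7 a positive one.

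Markers of mesenchyme and smooth muscle moved in the same comparison, and their part in the Hox results was not tested. Of 10 mesenchymal markers, 6 were called lower (Meox2, Col1a2, Col1a1, Tcf21, Fn1 and Col3a1) and 2 higher (Pdgfra and Npnt) in late than in early alveolar septa, with a median change of -0.62. Without the 3 zero-rich libraries 4 were called lower and 1 higher, as Fn1 (adjusted p = 0.143), Col3a1 (0.203) and Npnt (0.0894, limma) were no longer called. Their summed FPKM ran from 963 to 1665 in late alveolar libraries, against 1428 to 2047 in early alveolar libraries, and none was at 0 in any library. All 3 smooth muscle markers (Acta2, Myh11 and Des) were called lower, with sums of 73.1 to 157 FPKM in late alveolar libraries, against 216 to 426 FPKM in early alveolar libraries. Des was no longer called without the 3 zero-rich libraries (adjusted p = 0.0835). Tbx4, a T-box factor of the lung mesenchyme, fell by 0.79 ± 0.22 (limma, adjusted p = 0.0150), and Tbx5, Tbx2 and Tbx3 were not called. Without the zero-rich libraries Tbx4 was not called (adjusted p = 0.0529) and Tbx5 was called lower (-0.60, adjusted p = 0.0406). The 3 leukocyte markers summed to between 31.8 and 137 FPKM in late alveolar septa, against 14.0 to 31.3 FPKM in early alveolar septa, and Ptprc alone was called higher, joined by Cd79a (adjusted p = 0.0461) without the zero-rich libraries.

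Across the whole span, late alveolar against prenatal septa, the 2 paralog 7 genes were called in opposite directions. These were the only 2 calls among 14 members, where 31% of all genes tested were called, 12.7% higher and 18.3% lower. With quantile normalization the balance of all genes turned, to 2327 called higher and 2177 lower, against 1860 higher and 2674 lower without scaling. The median change was 0.23 over the members and -0.16 over all genes.

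Hoxa7 was higher in late alveolar septa. Its FPKM was 7.77 and 11.6 at P13.5, 4.11 and 5.67 at P15, 17.8 and 2.57 at P19, 4.31 and 5.87 at P23 and 4.08 at P28. In prenatal septa it was 1.11 and listed at 0 at E16.5, and listed at 0 and 1.95 at E18.5. All 9 late libraries lay above all 4 prenatal ones. The increase was 2.17 ± 0.47 (log2 difference ± SE, limma, adjusted p = 6.8e-04), and it was called under every alternative run, with values between 1.95 and 3.94. Without the 3 libraries rich in zeros, one of which holds the 17.8, it was 2.11. The stages between had medians of 2.14 FPKM (postnatal saccular, 0 to 3.74) and 3.11 FPKM (early alveolar, 0 to 5.44). Hoxa7 and Hoxb7, of which the Hoxb7 homeobox is printed above, shared no stretch longer than 26 bases between their transcripts. The longest stretch shared with any expressed member was 47 bases for Hoxa7 (with Hoxa6 and with Hoxb4) and 37 bases for Hoxb7 (with Hoxb6).

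Hoxb7 was lower. In late alveolar septa it was listed at 0 in 5 of 9 libraries and had 1.32 and 0.785 FPKM at P15, 0.598 in 1 animal of P23 and 2.71 at P28. In prenatal septa it had 2.05 and 5.07 FPKM at E16.5 and 2.09 and 1.75 at E18.5. The P28 value lay within the prenatal range and the other 8 late values below it. Hoxb7 fell by 1.31 ± 0.49 (limma log2 difference ± SE, adjusted p = 0.0411), and this call was fragile. It was lost under 7 of the alternatives, among them leaving out the 3 libraries with many zeros (-1.17, adjusted p = 0.0770) and taking E18.5 alone as the prenatal group (-1.03, adjusted p = 0.313), and on leaving out any 1 of 8 single libraries, with adjusted p up to 0.313 over all alternatives. Those 8 were both animals of E16.5, animal 4 of E18.5, both of P13.5, both of P19 and animal e of P23.

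Hoxb4 and Hoxa2 had higher means in late alveolar than in prenatal septa without passing the threshold. Hoxb4 ranged from 6.51 to 38.96 FPKM with a median of 14.3 in late alveolar septa, against 8.38, 11.9, 3.63 and 8.58 FPKM in the 4 prenatal libraries, a difference of 0.84 ± 0.34 (limma, adjusted p = 0.0605). Its call depended on the setting, with adjusted p between 0.0269 and 0.278 over 43 alternatives, and it was called on leaving out animal 2 of E16.5, animal c of P15 or the P28 animal. Hoxa2 ranged from 8.45 to 30.7 FPKM with a median of 15.4, against 11.7, 5.29, 6.64 and 14.5 FPKM in the prenatal libraries, a difference of 0.76 ± 0.33 (adjusted p = 0.0808). Both groups overlapped for each gene. Heart muscle markers (Myh6, Tnnt2 and Actc1) summed to between 6.34 and 62.9 FPKM in late alveolar libraries, against 31.1 to 1704 FPKM in prenatal libraries, and all 3 were called lower. All 3 endothelial markers (Cldn5, Cdh5 and Pecam1) were called higher and summed to between 523 and 744 FPKM in late alveolar libraries, against 191 to 505 FPKM in prenatal libraries. Airway markers summed to between 851 and 4789 FPKM in late alveolar libraries, against 24.5 to 455 FPKM in prenatal libraries, with Scgb1a1 and Cyp2f2 called higher. Alveolar type 1 markers had sums of 397 to 825 FPKM in late alveolar libraries, against 42.3 to 382 FPKM in prenatal libraries, with Aqp5 and Ager called higher. Leukocyte markers had sums of 31.8 to 137 FPKM in late alveolar libraries, against 2.904 to 39.1 FPKM in prenatal libraries, with Ptprc and Cd79a called higher and, without the zero-rich libraries, Cd3e too (adjusted p = 0.0328, limma). Of the 10 mesenchymal markers 3 were called higher (Npnt, Pdgfrb and Pdgfra) and 2 lower (Meox2 and Tcf21). Of the 4 T-box genes, Tbx3 (1.31) and Tbx2 (0.69) were called higher, and Tbx4 and Tbx5 were not called. Smooth muscle markers gave 1 call higher and 1 lower. Among alveolar type 2 markers Sftpb was called higher, and 1 of 3 mesothelial markers (Msln, Upk3b and Wt1) was called lower. The part of these markers in the Hox values was not tested.

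**Figure D5:**
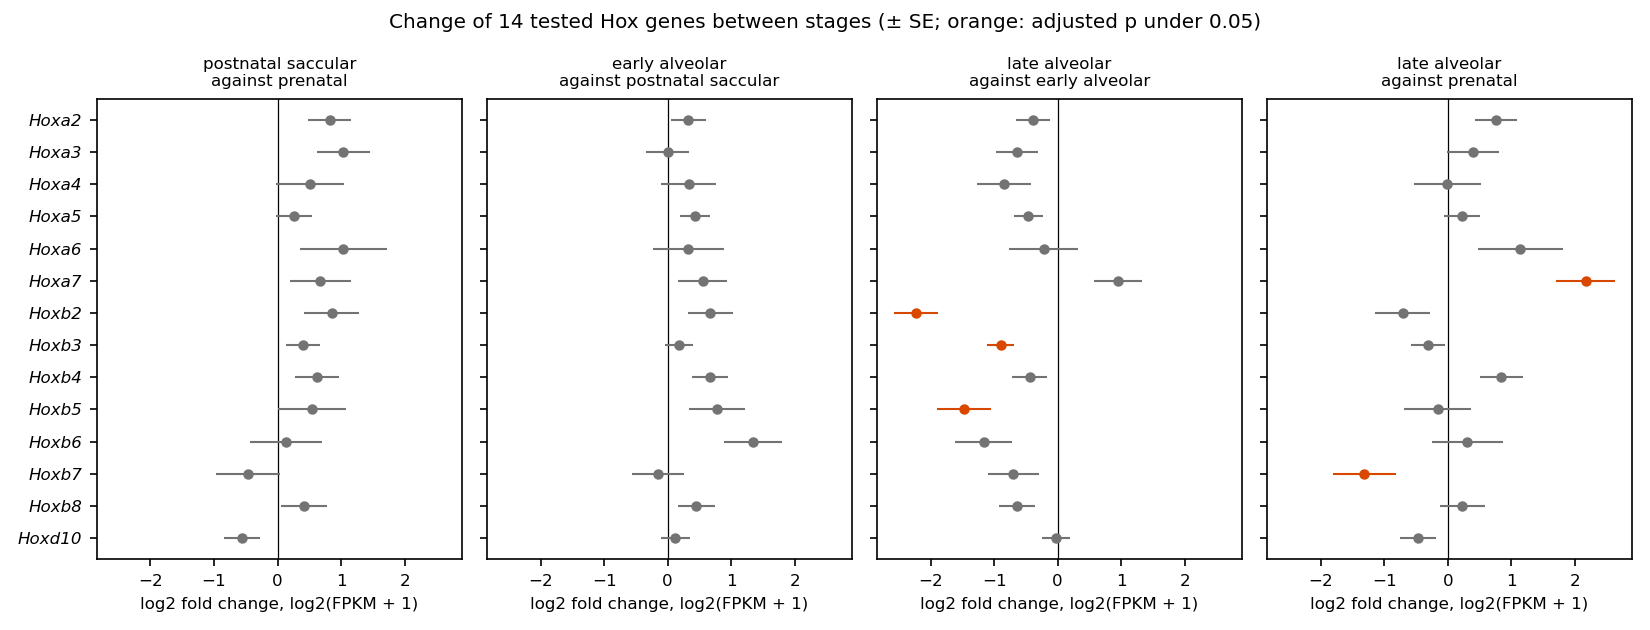
Log2 fold change of log2(FPKM + 1), later over earlier stage, with standard error for the 14 tested Hox genes in 4 stage comparisons; orange marks an adjusted p under 0.05. Orange points are Hoxb2, Hoxb3 and Hoxb5 at -2.23, -0.89 and -1.47 (late against early alveolar) and Hoxa7 and Hoxb7 at 2.17 and -1.31 (late alveolar against prenatal).

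Around birth no member was called. Between postnatal saccular and prenatal septa, limma called none of 14 members where it called 15.9% of all genes, and 2 members had an unadjusted p under 0.05. These were Hoxa3 with a difference of 1.04 ± 0.41 (adjusted p = 0.0858) and Hoxa2 with 0.82 ± 0.34 (adjusted p = 0.101). Hoxa2 had 9.15 to 28.1 FPKM with a median of 16.8 in postnatal saccular septa, against 5.29 to 14.5 with a median of 9.17 in prenatal septa. Hoxa3 was called when the 3 zero-rich libraries were left out (adjusted p = 0.0133), in which only the shared spread changes, under 3 other settings, and on leaving out animal d of P19 alone. Hoxa2 was called in a fit of 15 ages (adjusted p = 0.0493). The 12 members besides Hoxb7 and Hoxd10 had positive values, and the median was 0.53 over the members and 0.00 over all genes.

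Between early alveolar and postnatal saccular septa limma called none of 14 members, where it called 1.46% of all genes. At so low a share, none of 14 does not set the members apart from other genes. Here too 2 members had an unadjusted p under 0.05, Hoxb6 with 1.34 ± 0.46 (adjusted p = 0.149) and Hoxb4 with 0.66 ± 0.29 (adjusted p = 0.290). Hoxb4 had 13.6 to 37.2 FPKM in early alveolar septa with a median of 18.8, against 7.80 to 22.5 with a median of 11.9 in postnatal saccular septa. Within the prenatal group, E18.5 against E16.5, no member was called by limma where 4.53% of all genes were, and 0 of 14 had an unadjusted p under 0.05. The smallest p belonged to Hoxa5, with 8.24 and 9.40 FPKM at E18.5, against 14.3 and 14.5 FPKM at E16.5 (-0.65 ± 0.32, adjusted p = 0.311). Only 2 animals per age stand behind this comparison, and none of 14 is near the share of all genes. In a fit of the 4 prenatal libraries alone, 0 of 14616 genes were called.

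When age was fitted as a smooth curve over all 29 libraries, 7 of 14 members were called, where 30.7% of all genes were. They were Hoxa7 (limma F test, adjusted p = 0.0058), Hoxb3 (0.0106), Hoxb4 (0.0111), Hoxa4 (0.0176), Hoxb2 (0.0209), Hoxa2 (0.0257) and Hoxa3 (0.0321). The ages with the highest mean of these genes lay between P5 and P19. Hoxa2 and Hoxb3 had their highest mean at P5 (28.99 and 14.4 FPKM) and Hoxb2 at P10 (17.6). Hoxa3, Hoxa4 and Hoxb4 had theirs at P13.5 (9.70, 7.30 and 31.8) and Hoxa7 at P19 (10.2), where its 2 animals differed most. Each of these means rests on 2 animals, and for several genes the age of the maximum was not resolved. Hoxa2 averaged 28.1 FPKM at P4 and 27.9 at P13.5, Hoxb3 14.1 at P1.5, Hoxa3 9.37 at P2.5 and Hoxa7 9.70 at P13.5. The 2 animals of P13.5 differed widely for Hoxa4. Postnatal libraries alone gave 2 calls, Hoxb2 and Hoxb3. Without the 3 zero-rich libraries, which hold both zeros and the maximum of Hoxb2, the count was 6 and Hoxb2 was lost (adjusted p = 0.0569, limma). Without animal 2 of E16.5 the count was 5, with Hoxa2 and Hoxa3 lost. Hoxa3 was also lost without animal b of P5 or animal f of P23, and Hoxa4 without the P28 animal.

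Animals of the same age differed widely for some members. Over the 14 ages with 2 animals, the median difference of log2(FPKM + 1) was lowest for Hoxa5 at 0.25 and Hoxd10 at 0.25 and highest for Hoxa6 at 1.11 and Hoxa7 at 1.03. Hoxa5 lay within 0.88 at every age, whereas Hoxa4 differed by 3.26 and Hoxa3 by 3.09 between the 2 animals of P19, one of which had 578 well expressed genes at 0. Hoxa6 was listed at 0 in 12 libraries and reached 12.9 FPKM in 1 of P13.5, with no age at which both animals were close to its maximum. As a description over the 29 libraries, which share age as a common factor, the Pearson correlation of log2(FPKM + 1) between 2 members had a median of 0.31 within HoxA (15 pairs), 0.37 within HoxB (21 pairs) and 0.27 between them (42 pairs). The pairs most alike were Hoxb5 with Hoxb6 (0.67) and Hoxa2 with Hoxb4 (0.67). Hoxd10 had correlations between -0.41 and 0.21 with the other 13.

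Most of the listed TALE cofactors of Hox proteins reached an FPKM of 1 in all 29 libraries. Meis3 did so in 27 libraries and Pbx4 in 2. The 8 TALE genes listed summed to between 105 and 199 FPKM per library, and 7 of them were tested. Pbx2 was called lower in late than in early alveolar septa (-1.08 ± 0.18, limma, adjusted p = 1.2e-04) and lower in late alveolar than in prenatal septa (-0.72 ± 0.22, adjusted p = 0.0134). Pknox2 was called higher in late alveolar than in prenatal septa (1.21 ± 0.32, adjusted p = 0.0046). These were 1 of 7 genes between the alveolar stages and 2 of 7 over the whole span, near the 11.4% and 31% of all genes. None of the 7 was called between the early alveolar and the postnatal saccular stage. None was called around birth either, where Pbx2 had an adjusted p of 0.0505, but without the zero-rich libraries Pbx2 (0.64, adjusted p = 0.0105) and Pknox2 (0.85, adjusted p = 0.0428) were called higher in postnatal saccular than in prenatal septa.

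Chromatin regulators of the clusters were called in both directions. The shares of all genes called, against which their counts are to be read, were 15.9% around birth, 11.4% between the alveolar stages and 31% over the whole span. Of 8 trithorax-type genes, 3 were called higher in postnatal saccular than in prenatal septa, the histone demethylase Kdm6b (1.04 ± 0.26, limma, adjusted p = 0.0053) and the methyltransferases Kmt2b (0.99 ± 0.25, adjusted p = 0.0061) and Kmt2a (0.47 ± 0.16, adjusted p = 0.0443). These 3 were also called higher in late alveolar than in prenatal septa, and Kdm6a lower. Of 15 Polycomb genes, 3 were called lower around birth, the methyltransferase gene Ezh2 (-1.23), its partner Suz12 (-1.03) and the ubiquitin ligase gene Rnf2 (-0.72), and 2 higher, Pcgf2 (1.18) and Cbx7 (1.28), with Bmi1 a further gene called lower without the zero-rich libraries (-0.45, adjusted p = 0.0479, limma). Between late and early alveolar septa Ezh2 (-1.03) and Rnf2 (-0.47) were called lower and Cbx7 (1.08) higher. Without the zero-rich libraries Rnf2 was not called (adjusted p = 0.0718) and Suz12 was called lower (-0.66, adjusted p = 0.0129). In either fit, no gene of either list was called between early alveolar and postnatal saccular septa. In late alveolar against prenatal septa 1 Polycomb gene was called higher and 4 were called lower.

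Genes just outside the clusters were called in both directions. Of 13 neighbours 9 were tested, and 3 of them were called between the alveolar stages, where 11.4% of all genes were. Between late and early alveolar septa Tax1bp1 (0.70 ± 0.17, adjusted p = 0.0061) and Skap1 (1.15 ± 0.37, adjusted p = 0.0407) were called higher and Cbx5 lower (-0.54 ± 0.16, limma, adjusted p = 0.0259). Without the zero-rich libraries Skap1 was not called (0.96, adjusted p = 0.154). It lies beyond the HoxB cluster, where the 3 called Hox genes were lower. Cbx5, a heterochromatin protein gene beside the HoxC cluster, was also lower in postnatal saccular than in prenatal septa (-1.14 ± 0.20, adjusted p = 2.7e-04).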

How the data were processed

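Alveolar septa of 29 mice were captured by laser, and stranded libraries of RNA depleted of ribosomal RNA were sequenced. By the submitters' processing notes, STAR 2.5.1, Cufflinks 2.2.1 and the build mm10 were used, and the authors deposited FPKM values per gene ID. Their settings and annotation are not given in the sources used here, and read depth is unknown, so the spread between animals stands in for precision. Whether the animals of a stage shared litters is not stated.

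The deposited table held 24486 lines for 22779 gene IDs, 1226 of them on several lines. Of such lines, the one with the greatest mean stood for the gene. Symbols came from RefSeq for 22718 IDs. The 14616 genes that reached an FPKM of 1 in 4 or more libraries were tested on log2(FPKM + 1), a pseudocount of 1. The tool was limma 3.58.1 (R 4.3.3, eBayes with trend=TRUE), in one fit of 4 stage groups, with Benjamini-Hochberg adjustment over all genes and a threshold of 0.05. For age, limma's F test was applied to a natural spline (3 df) of the log2 age counted from conception, taking day 19 as birth, and E18.5 against E16.5 in a fit of 15 ages. Before use, the fit was run on simulated data (200 genes changed). These held independent normal noise and no zero-rich libraries, so they do not speak for calls that depend on such libraries. Python 3.11.15, numpy 2.4.6, pandas 2.3.3, Biopython 1.88 and matplotlib 3.10.9 were used.

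The Hox genes as a subject, the lists of companion and marker genes and the stage groups were chosen with earlier results of these data known; within the family, members were taken by symbol. One member and 1 companion gene are not reported here. Values were given in full for members called in a stage comparison and for the 5 members with the highest mean. Up to 4 members of a companion list with the smallest p were named. The T-box genes, the cell type markers and companion genes whose call changed without the zero-rich libraries were named after their values were seen. Alternatives were other pseudocounts, filters, scalings, covariates, weights, line choices and groupings, and leaving out single libraries or the 3 rich in zeros.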

Additional observations from a re-analysis of the deposited data

Results flagged for a closer look

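In 56 sets of values (14 tested members in 4 stage groups), 6 had a lowest or highest library whose gap to the next, divided by the range of log2(FPKM + 1), passed Dixon's 95% limit, and chance flags about 1 in 20 such sets. Hoxb7 had 5.07 FPKM in animal 2 of E16.5, against 2.09 in the next prenatal library (ratio 0.852), and without that animal the late alveolar against prenatal call of Hoxb7 was lost. Hoxb5 was listed at 0 in animal f of P19, against 2.18 in the next late alveolar library (ratio 0.497). Hoxa7 was listed at 0 in animal c of P7, against 2.24 in the next early alveolar library (ratio 0.632). Hoxb8 had 2.98 FPKM in animal c of P13.5, against 0.562 in the next late alveolar library (ratio 0.677), and 0.296 in animal 9 of E16.5 with the other prenatal libraries listed at 0 (ratio 1). Hoxa6 had 0.388 FPKM in animal 2 of E16.5, with the other prenatal libraries listed at 0 (ratio 1). Where all other values are tied at 0 the ratio is 1 whatever the remaining value is. The prenatal flags of Hoxb8 and Hoxa6 were thus fixed by the ties, and the chance rate of 1 in 20 does not apply to them.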

How the results depend on the processing

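The 12 called results and the 4 others followed through the alternatives gave 659 recomputed values, of which 614 kept their side of the threshold, 31 lost the call, 14 gained it and 0 reversed. The age results among them have no direction and could not reverse. Between postnatal saccular and prenatal septa the count of called members was 1 in place of 0 with quantile normalization, array quality weights, only the 2 groups compared or without the 3 libraries rich in zeros (Hoxa3) and in a fit of 15 ages (Hoxa2), and 0 to 1 on leaving out single libraries. For late alveolar against prenatal septa it was 1 (Hoxa7) in place of 2 with no filter, with array quality weights, without the 3 libraries rich in zeros and with E18.5 alone, and 1 to 4 on leaving out single libraries. For late against early alveolar septa it was 1 (Hoxb3) in place of 3 with the alveolar stage divided after P7, 2 (Hoxb2 and Hoxb3) with a pseudocount of 0.1 or without the 3 libraries rich in zeros, and 4 with quantile normalization (Hoxa7 added) and in a fit of 15 ages (Hoxa5 added), and single omissions gave 3 to 4, for age 5 to 9, with 2 in postnatal libraries alone in place of 7, and 0 in every case for the other comparisons. The number of expressed members was 5 when every library had to pass, in place of 14. Quantile normalization moved the median of all genes in late alveolar against prenatal septa to -0.01, against -0.16 without scaling, and the members' median to 0.38, against 0.23. The cause of these changes was not tested. No paired analysis was possible because animal letters and numbers name different animals at each age. With read depth unknown, a value listed at 0 gives no upper limit.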
